A study of Rhagoletis pomonella with 50 samples.

Results

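The comparison set the central nervous system (CNS) of apple pupae of the fly Rhagoletis pomonella against that of hawthorn pupae, both sampled at 5 months. It used 10 of the 50 libraries of the series, all those labelled with that time, namely 5 apple libraries and 5 hawthorn libraries. The other 40 libraries (both hosts at 2, 3, 4 and 6 months, 5 each) entered the model that estimated the spread. Apple pupae came from larvae that left infested apples and hawthorn pupae from larvae that left infested hawthorn fruit, all gathered around Urbana, Illinois. All groups shared the rearing: 10 days at about 24 °C under 14 h light and 10 h dark, in which the insects pupated and entered diapause, and then 3.5 °C at 95% relative humidity. Each library was made from 10 pooled CNS, so a value is an average over pupae whose sex and individual diapause state are not given. The flies were field-collected, so host fruit, descent and larval diet differed together.

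Rhagoletis pomonella, the apple maggot fly, is native to hawthorn in North America, and populations that attack apple arose after apples were planted there. Apple fruit ripens before hawthorn fruit, and flies from apple emerge as adults earlier in the year. The timing is set mostly by pupal diapause, a state of arrested development and lowered metabolism that persists through winter, and the brain takes part in ending it through its neurohormones. The comparison addresses which transcripts differed between the hosts late in the cold period.

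The identifiers in the files could not be given names. Of 29399 features and 39273 transcripts listed, 0 and 0 were found in the R. pomonella gene table used as reference. The roles of the features, and the markers of neurons, glia, fat body or muscle that would check the dissected tissue, were therefore not analysed here. In tissue pools, fewer cells of a type and less RNA per cell cannot be told apart.

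Totals of expected counts (estimated reads per feature) lay between 10857263 and 15630494 in the apple libraries and between 11979314 and 14551985 in the hawthorn libraries of 5 months. Over the whole series they lay between 8718271 and 30540959. Apple libraries of 5 months had been sequenced on lanes 5 (3 libraries) and 6 (2 libraries), and hawthorn libraries of 5 months on lanes 2 (1 library) and 3 (4 libraries), with different sets of first index sequences. No lane held both hosts at that time, so within the month lane and host cannot be told apart. Features of hawthorn libraries at 4 months had a median SD of 0.53 on the log2 CPM scale, against 0.23 to 0.31 in the other groups. Replicates 2 and 4 of that group stood apart in earlier results of these data. The fits of the host difference at 5 months, of its change from other months and of hosts 1 month apart were repeated without them. Those counts are given where they changed by more than 1.5 times. Host calls at the other months and calls of change from 3 to 6 months were not refitted without them. CPM is counts per 1000000 of the library total after TMM scaling (trimmed mean of M values).

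The apple and hawthorn CNS differed at 5 months in a minority of features, and mostly by modest amounts. Of 13862 features tested, 894 (6.45%) passed an adjusted p of 0.05 in edgeR's quasi-likelihood test with Benjamini-Hochberg adjustment. In apple pupae 402 features (2.90%) were higher and 492 (3.55%) were lower. The median fold was 1.63 among features higher in apple and 1.67 among features lower in apple. At least 1.5-fold differences were found in 272 features higher and 362 lower in apple, at least 2-fold differences in 88 and 98, and at least 4-fold differences in 13 and 14. Over all 13862 features tested the median log2 fold change was 0.01.

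Values of the 5 apple and 5 hawthorn libraries did not overlap for 1008 of the features tested (7.27%). All apple values lay above all hawthorn values in 351 features (2.53%), and all hawthorn values above all apple values in 657 (4.74%). Among the called features, 194 of the 402 higher in apple and 353 of the 492 lower in apple showed such a separation. The called features that were higher in apple made up 7.77% ± 0.733 of the deposited TPM (transcripts per 1000000, a measure per length) in apple libraries and 4.91% ± 0.208 in hawthorn libraries (SD, n = 5 each). Those lower in apple made up 0.745% ± 0.165 in apple libraries and 1.37% ± 0.182 in hawthorn libraries. These shares describe features that the test had already chosen, and no test was made on them.

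Without hawthorn replicates 2 and 4 of 4 months, which lie outside the contrast and enter only the estimate of the spread, 1855 features were called, the 894 among them. With sequencing lane as a term 1 feature was called, and 1581 had an unadjusted p under 0.05. All 894 features kept their direction in that fit, with a median log2 difference of 0.70 in place of 0.72. The median standard error (SE) was 0.30 in place of 0.19. These features had been chosen by their difference in the same libraries, so a kept direction and size is no test of the part of lane. Leaving out 1 library of 5 months at a time gave between 279 calls, without apple replicate 4, and 1022 calls, without apple replicate 2. The count was over 1.5 times smaller without apple replicates 1 (577), 3 (437) or 4, and without hawthorn replicates 1 (552), 3 (388), 4 (447) or 5 (518).

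The single feature called with the lane term was gene13443, named after its values were seen. Its transcript has a length of 2052 bp. It had 72.8, 78.6, 89.3, 72.7 and 70.0 CPM in apple replicates 1 to 5, against 126, 141, 127, 134 and 153 CPM in hawthorn replicates 1 to 5. The highest apple library stood well below the lowest hawthorn library, and the spread within each host was small. The log2 fold change was -0.83 (SE 0.12, adjusted p = 8.00e-05 in edgeR's quasi-likelihood test), and -0.97 with the lane term (SE 0.17, adjusted p = 0.00954).

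Of the 894 features, 138 kept their call in 12 further fits (with a length term described below, without the hawthorn libraries of 4 months that stand apart, and without each library of 5 months in turn), had a mean log2 CPM of at least 1 and did not overlap between hosts. Among these 138 features 44 were higher and 94 lower in apple. The pair with the largest fold change in each direction is given in full. None of these 4 features passed the threshold with lane as a term, where their adjusted p ran from 0.0887 to 0.323 and their direction was the same (edgeR, Benjamini-Hochberg).

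Feature gene19551 (2 listed transcripts, mean length 2765 bp) was higher in apple. It had 10.7, 3.00, 13.1, 7.35 and 2.23 CPM in apple replicates 1 to 5, against 1.21, 1.05, 1.24, 1.11 and 0.152 CPM in hawthorn replicates 1 to 5. All apple pools were above all hawthorn pools, and the apple pools ranged widely among themselves. The log2 fold change was 2.91 (SE 0.53, adjusted p = 0.00118, edgeR), the largest of the 4.

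Its host difference was not limited to 5 months. Mean levels at 2, 3, 4, 5 and 6 months were 11.0, 6.42, 4.75, 7.28 and 7.81 CPM in apple and 2.44, 1.56, 2.01, 0.952 and 0.989 CPM in hawthorn. The apple mean exceeded the hawthorn mean at each time, and the difference passed the threshold also at 2 months (log2 fold change 2.18, adjusted p = 0.0103) and at 6 months (2.96, adjusted p = 0.00443), in edgeR's test. At 3 and 4 months the log2 fold changes were 2.03 (adjusted p = 0.121) and 1.25 (adjusted p = 0.0967).

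Feature gene6794 (1 transcript of 391 bp) was higher in apple, with 20.9, 21.1, 42.2, 50.8 and 15.4 CPM in apple replicates 1 to 5, against 10.3, 13.5, 8.61, 8.45 and 11.0 CPM in hawthorn replicates 1 to 5. Apple replicates 3 and 4 stood well above the other apple pools, and the lowest apple pool was close to the highest hawthorn pool. The log2 fold change was 1.53 (SE 0.34, adjusted p = 0.00605, edgeR). With the length slope covariate described below it was 0.80 (adjusted p = 0.0217), and 0.70 without hawthorn replicates 2 and 4 of 4 months as well (adjusted p = 0.0363). At the other times it lay between -0.39 at 4 months and 0.76 at 6 months, with adjusted p between 0.251 and 0.871.

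Feature gene16789 (1 transcript of 3742 bp) was lower in apple. It had 2.40, 3.15, 1.32, 2.34 and 2.54 CPM in apple replicates 1 to 5, against 4.08, 8.44, 9.62, 6.53 and 6.52 CPM in hawthorn replicates 1 to 5. The groups did not overlap, and hawthorn replicate 1 was the hawthorn pool nearest to the apple range. The log2 fold change was -1.57 (SE 0.33, adjusted p = 0.00408, edgeR).

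Feature gene15646 (2 transcripts, mean length 2340 bp) was lower in apple as well. It had 15.4, 14.4, 7.44, 4.44 and 10.2 CPM in apple replicates 1 to 5, against 20.4, 40.2, 26.4, 30.0 and 23.2 CPM in hawthorn replicates 1 to 5. All apple pools lay below all hawthorn pools. The log2 fold change was -1.43 (SE 0.30, adjusted p = 0.00408, edgeR).

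Both features lower in apple at 5 months rose in each host over the later cold period. Mean levels of gene15646 at 3, 4, 5 and 6 months were 9.98, 13.2, 10.4 and 22.4 CPM in apple, against 12.9, 13.9, 28.0 and 28.6 CPM in hawthorn. Its level at 5 months was thus close to that of 3 months in apple and to that of 6 months in hawthorn. Mean levels of gene16789 at 3, 4, 5 and 6 months were 1.71, 2.32, 2.35 and 4.32 CPM in apple, against 1.79, 3.39, 7.04 and 5.86 CPM in hawthorn. The changes from 3 to 6 months passed the threshold for both features in both hosts (log2 changes of 1.16 in apple and 1.15 in hawthorn for gene15646, and of 1.34 and 1.72 for gene16789, adjusted p between 7.55e-04 and 0.0105, edgeR). Neither feature passed it between hosts at 2, 3, 4 or 6 months, with adjusted p between 0.0791 and 0.986.

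**Figure D1:**
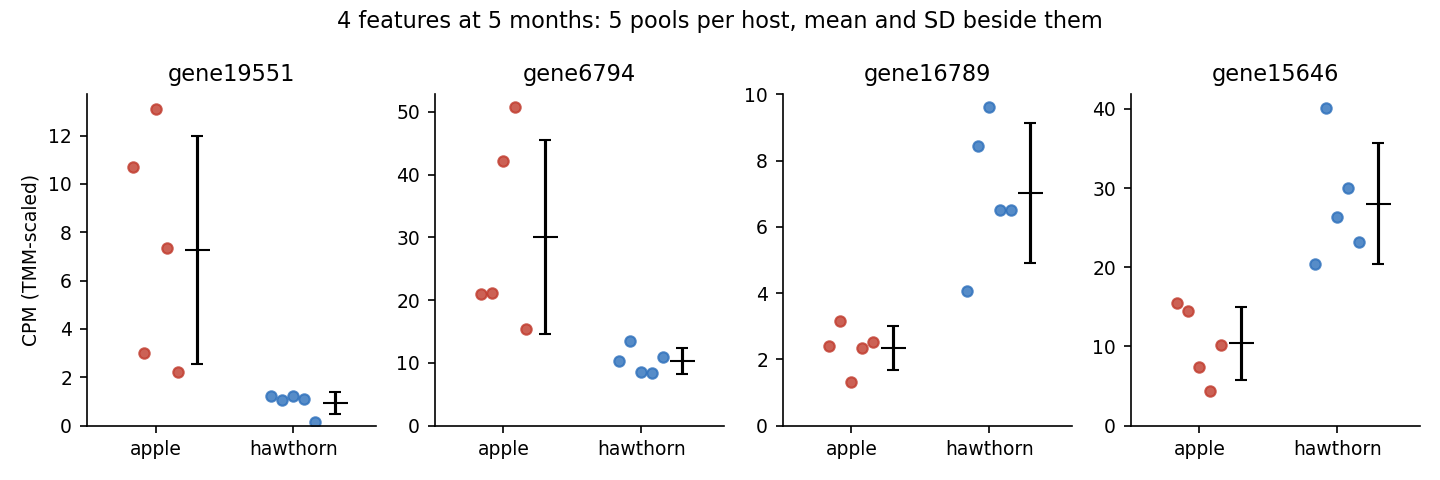
CPM after TMM scaling (vertical axis, linear, a panel for each feature) in the 5 apple and 5 hawthorn libraries of 5 months; each point is a pool of 10 CNS in the order of replicates 1 to 5, and the line and bars beside the points are the mean and SD. Features gene19551 and gene6794 were higher in every apple library, and gene16789 and gene15646 were lower in every apple library.

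To place the 5-month values of both hosts along the later cold period, features were chosen by their change between libraries of 3 and 6 months. Between 3 and 6 months 291 features rose in both hosts, each at an adjusted p under 0.05 (edgeR), and 177 fell in both. In apple 534 features rose (3.85%) and 416 fell (3.00%), and in hawthorn 612 rose (4.41%) and 351 fell (2.53%). No 5-month library belonged to the groups compared in that choice, while all 50 libraries entered the filter and the estimate of the spread. Of the 291 features that rose, 254 were lower and 37 higher in apple than in hawthorn at 5 months by their fold change, and 68 were called lower and 0 higher. Of the 177 that fell, 144 were higher and 33 lower in apple at 5 months, and 15 were called higher and 1 lower. With the length slope covariate described below, 36 of the features that rose were called lower and 0 higher in apple, and 9 of those that fell were called higher and 0 lower. With lane as a term 1 of the 291 and 0 of the 177 were called. Background shares at 5 months in the fit without a covariate were 2.90% called higher and 3.55% called lower in apple. Of all 13862 features, 137 were called higher and 225 lower with the length slope covariate, and 1 was called with lane as a term. The median log2 fold change between hosts of the features that rose was -0.34 at 5 months, against -0.12 at 3 months and -0.10 at 6 months. For those that fell it was 0.20, against 0.07 and 0.05. A smaller host difference of the same sign was thus present at 3 and 6 months.

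The level of these features in each library was placed on a scale on which the mean of the 10 libraries of 3 months is 0 and the mean of the 10 libraries of 6 months is 1, from the mean log2 CPM over the features. For the 291 features that rose, apple replicates 1 to 5 of 5 months stood at 0.537, 0.503, 0.167, 0.253 and 0.401, and hawthorn replicates 1 to 5 at 0.828, 0.836, 0.894, 0.798 and 0.753. The hosts did not overlap, and all apple libraries were nearer to the level of 3 months or about midway, while all hawthorn libraries were nearer to that of 6 months. The mean was 0.372 ± 0.159 in apple and 0.822 ± 0.0516 in hawthorn (SD, n = 5 each).

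The month before, the hosts overlapped on this scale over all 291 features. At 3 months the mean was -0.0673 ± 0.118 in apple and 0.0673 ± 0.0796 in hawthorn, as the scale sets only the mean over both hosts to 0. At 4 months it was 0.361 ± 0.0580 in apple and 0.412 ± 0.129 in hawthorn. At 6 months it was 0.922 ± 0.120 in apple and 1.08 ± 0.102 in hawthorn (SD, n = 5 each). The apple mean at 5 months thus differed from that of 4 months by less than the spread between pools, whereas all hawthorn pools of 5 months lay above all hawthorn pools of 4 months. By transcript length the picture at 4 months was uneven. Over the shorter features the hosts did not overlap, with 0.313 to 0.441 in apple and 0.479 to 0.566 in hawthorn. Over the longer ones they did, with 0.239 to 0.430 in apple and -0.0337 to 0.671 in hawthorn, where replicates 2 and 4 had the lowest values (0.203 and -0.0337).

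For the 177 features that fell, apple replicates 1 to 5 of 5 months stood between 0.491 and 0.685 (mean 0.578 ± 0.0833) and hawthorn replicates between 0.772 and 0.948 (mean 0.831 ± 0.0718). The ranges again did not overlap. At 4 months the means also differed, 0.575 ± 0.154 in apple and 0.826 ± 0.0866 in hawthorn. The ranges overlapped there, as 1 apple library reached 0.826 and the lowest hawthorn library stood at 0.756. Over the shorter of these features the means at 4 months were 0.541 in apple and 0.691 in hawthorn. Their ranges overlapped (0.349 to 0.717 and 0.518 to 0.987). Over the longer ones they overlapped too, with 0.415 to 0.967 in apple and 0.635 to 1.34 in hawthorn. Hawthorn replicates 2 and 4 had the highest values there (1.18 and 1.34). At 6 months the means were 0.982 ± 0.0544 in apple and 1.02 ± 0.0792 in hawthorn.

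These positions are descriptions with no test, and the part of lane in them was not tested by them. Within lane 6, apple replicates 4 and 5 of 5 months stood at 0.253 and 0.401 for the features that rose, the 1 apple library of 6 months on that lane at 0.810, and the 4 apple libraries of 4 months between 0.293 and 0.423. Within lane 2, the 1 hawthorn library of 5 months stood at 0.828, the 2 of 6 months at 1.03 and 1.07, the 3 of 4 months between 0.246 and 0.422, and the 1 of 3 months at -0.0649. Within lane 5, the 3 apple libraries of 5 months stood between 0.167 and 0.537 and the 4 of 3 months between -0.201 and 0.000113. The 1 apple library of 4 months on lane 5 stood at 0.318. On shared lanes apple libraries of 5 months thus lay above those of 3 months and below that of 6 months, while against those of 4 months 1 of 2 was lower than all on lane 6 and 2 of 3 were higher on lane 5. The 1 hawthorn library of 5 months on lane 2 lay between those of 4 and 6 months. The 4 hawthorn libraries of 5 months on lane 3 shared it with no hawthorn library of another month, so they could not be compared in this way. No lane held both hosts at 5 months, so the host difference has no value within a lane. With lane as a term the median log2 fold change between hosts at 5 months was -0.28 over the 291 features that rose, in place of -0.34, and 226 of them were lower in apple. It was 0.12 over the 177 that fell, in place of 0.20, and 125 of them were higher in apple. Over all 13862 features tested the median with that term was -0.02.

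**Figure D2:**
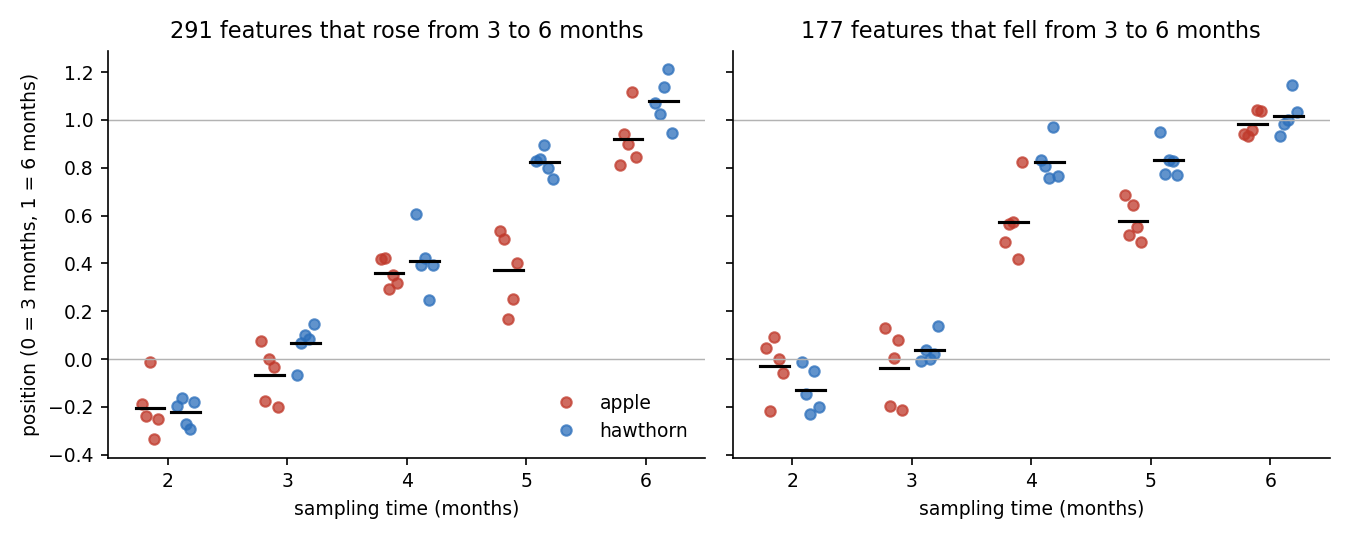
Position of every library (points, with the group mean as a line) between the mean level at 3 months (0) and at 6 months (1), for the 291 features that rose (left panel) and the 177 that fell (right panel) in both hosts from 3 to 6 months, against sampling time in months. The change between libraries of 3 and 6 months chose these features, and those libraries fix the scale. At 5 months the apple libraries (0.167 to 0.537 for the features that rose) all lie below the hawthorn libraries (0.753 to 0.894).

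The same relation was seen from the features called at 5 months. Of the 492 features lower in apple, 82.9% rose from 3 to 6 months in apple and 84.6% in hawthorn, by their fold change, against 50.3% of all features tested in each host. Median log2 changes were 0.32 in apple and 0.34 in hawthorn. By the test, 100 of the 492 rose (20.3%) and 4 fell (0.813%) in apple, and 115 rose (23.4%) and 3 fell (0.610%) in hawthorn. Over all features tested, 3.85% rose and 3.00% fell by the test in apple, and 4.41% rose and 2.53% fell in hawthorn. Of the 402 features higher in apple, 31.3% rose in apple and 27.1% in hawthorn, with median log2 changes of -0.14 and -0.17. By the test, 1 rose (0.249%) and 28 fell (6.97%) in apple, and 0 rose and 30 fell (7.46%) in hawthorn. By the sign of the fold change alone, most features lower in apple at 5 months had higher levels at 6 than at 3 months, and most features higher in apple had lower ones, while the greater part of both sets did not pass the test of that change.

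Each host was also set beside the other 1 month apart. Apple pupae of 5 months against hawthorn pupae of 6 months differed in 498 features (3.59%), of which 144 (1.04%) were higher and 354 (2.55%) lower in apple. Apple pupae of 6 months against hawthorn pupae of 5 months differed in 141 features (1.02%), of which 101 (0.729%) were higher and 40 (0.289%) lower in apple. Each of these comparisons shares 5 libraries with that of 5 months, and whether the numbers of calls differ was not tested. With the length slope of each library as a covariate (described below) the counts were 519 and 280, against 362 for the hosts at 5 months, and 679 and 479, against 672, when hawthorn replicates 2 and 4 of 4 months were left out as well. Without the 6 single-index libraries, all of 6 months, the counts were 43 and 2. The pair of features called in the second of these, gene5410 and gene8250, was named after its values were seen and was higher in apple of 6 months (log2 fold changes of 4.15 and 3.76, adjusted p = 2.34e-04 and 0.0480, edgeR).

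Whether the host difference was particular to 5 months was tested against the mean host difference of 2, 3, 4 and 6 months. The 2 differed in 1233 features (8.89%) in edgeR's test, with 666 (4.80%) more positive and 567 (4.09%) more negative at 5 months. Of the 666, 221 were called higher in apple at 5 months, and of the 567, 264 were called lower. The others had no called host difference at that time. With 4 months left out of the mean and the fit, 743 were more positive and 762 more negative. The balance of 666 to 567 turned with the length slope covariate, to 44 more positive and 257 more negative. It was 156 to 472 with that covariate and without hawthorn replicates 2 and 4 of 4 months. Leaving out 1 library of 5 months at a time gave 345 to 1462 interactions. Against the host difference of 6 months alone, 97 features (0.700%) differed, 26 (0.188%) more positive and 71 (0.512%) more negative at 5 months. Without hawthorn replicates 2 and 4 of 4 months the counts were 1449 and 383, and without the 6 single-index libraries 682 and 0. In that last fit 801 features had an unadjusted p under 0.05. With the lane term the counts were 1, again gene13443 (log2 interaction -0.90, adjusted p = 0.0401), and 0, with 1835 and 1296 features at an unadjusted p under 0.05.

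The features with the largest such interactions in each direction, all called without those hawthorn libraries too, included some of the most abundant transcripts. Feature gene1179 (1 transcript of 477 bp) ranked 90th and gene1174 (1 transcript of 921 bp) 120th by TPM over the libraries of 5 months. Apple replicates 1 to 5 had 2008, 1551, 2503, 2082 and 458 CPM of gene1179 at 5 months, against 452, 655, 348, 368 and 741 CPM in hawthorn replicates 1 to 5. Apple replicate 5 lay within the hawthorn range, and the other 4 apple libraries were at least 2-fold above the highest hawthorn library. At 2, 3, 4 and 6 months the apple means were 206, 451, 368 and 458 CPM, against hawthorn means of 496, 495, 745 and 871 CPM.

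The host difference of gene1179 at 5 months (log2 fold change 1.75, SE 0.44, adjusted p = 0.0151) exceeded the mean of the other months by 2.58 (SE 0.49, adjusted p = 0.00219) and that of 6 months by 2.67 (SE 0.61, adjusted p = 0.0223), both in edgeR's test. With the length slope covariate the interaction with the mean of the other months was 1.56 (adjusted p = 0.0358). The interaction with 6 months lost its call without hawthorn replicate 5 of 6 months (adjusted p = 0.0586).

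Feature gene1174 had 2285, 1447, 1715, 2641 and 997 CPM in apple replicates 1 to 5 at 5 months, against 825, 646, 566, 734 and 925 CPM in hawthorn replicates 1 to 5. All apple libraries were above all hawthorn libraries, the lowest only slightly. At 6 months the order was turned, with 658 ± 430 CPM in apple pools against 1590 ± 376 CPM in hawthorn pools (mean ± SD, n = 5 each). The host difference was 1.30 on the log2 scale at 5 months (SE 0.37, adjusted p = 0.0302) and -1.27 at 6 months (adjusted p = 0.0810), and the 2 differed by 2.57 (SE 0.52, adjusted p = 0.00695, edgeR).

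Feature gene25032 (1 transcript of 989 bp) had 734, 138, 285, 324 and 248 CPM in apple replicates 1 to 5 at 5 months, against 74.6, 131, 74.4, 116 and 120 CPM in hawthorn replicates 1 to 5. The groups did not overlap, and apple replicate 1 was more than 2-fold any other apple library. Its interaction with the mean of the other months was 2.24 (SE 0.48, adjusted p = 0.00554, edgeR), and 1.36 with the length term described below (adjusted p = 0.0872).

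Feature gene292 (3 transcripts, mean length 2623 bp) had its lowest apple levels at 5 months. Apple replicates 1 to 5 had 3.93, 4.38, 5.75, 3.31 and 6.04 CPM, against 10.1, 6.14, 7.44, 8.60 and 14.9 CPM in hawthorn replicates 1 to 5. The highest apple library was just below the lowest hawthorn library, and the host difference itself did not pass the threshold (log2 fold change -1.01, SE 0.45, adjusted p = 0.158). At 2, 3, 4 and 6 months apple means were 41.3, 14.7, 15.5 and 37.7 CPM, against hawthorn means of 13.7, 6.68, 8.69 and 8.47 CPM. The apple mean of 6 months rested on 2 libraries with 82.7 and 69.0 CPM, the other 3 lying between 9.57 and 13.7. The difference was called higher in apple at 2 months (log2 fold change 1.59, adjusted p = 0.0290) and 6 months (2.16, adjusted p = 0.0114). The interaction was -2.44 against the mean of the other months (SE 0.50, adjusted p = 0.00382) and -3.17 against 6 months (SE 0.62, adjusted p = 0.00583), all in edgeR's test. The last lost its call when the model held only the 4 groups it compares (adjusted p = 0.0618).

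Feature gene10040 (1 transcript of 3694 bp) had 1.97, 2.00, 1.32, 2.10 and 2.60 CPM in apple replicates 1 to 5 at 5 months, against 7.33, 3.77, 5.12, 5.04 and 5.53 CPM in hawthorn replicates 1 to 5. All apple pools were below all hawthorn pools (log2 fold change -1.41, SE 0.31, adjusted p = 0.00598, edgeR). At 6 months apple pools averaged 5.16 ± 1.19 CPM, against 2.97 ± 1.10 CPM in hawthorn pools (SD, n = 5 each). The interaction was -1.97 against the mean of the other months (SE 0.35, adjusted p = 0.00102) and -2.20 against 6 months (SE 0.43, adjusted p = 0.00583).

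None of these interactions passed the threshold with lane as a term (adjusted p from 0.0564 to 0.264). Those with 6 months did not pass without the single-index libraries either (0.491 to 0.739), and every one kept its direction in both fits.

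**Figure D3:**
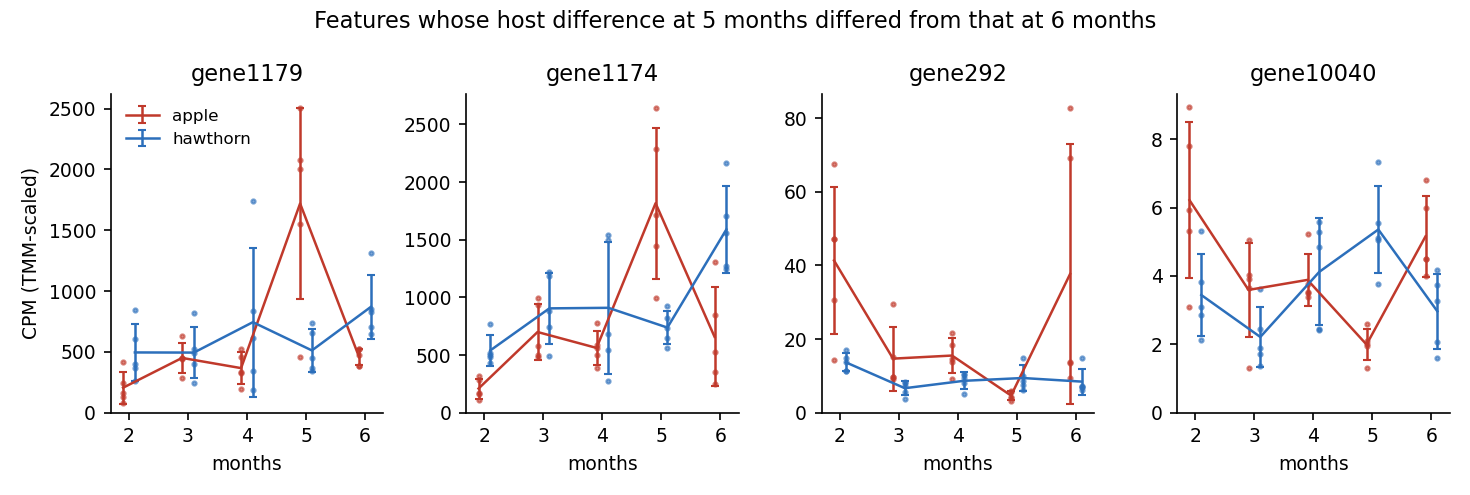
CPM after TMM scaling (vertical axis, linear) against sampling time in months for 4 features whose host difference at 5 months differed from that at 6 months; points are libraries, lines join group means and bars are SD, with apple in red and hawthorn in blue. Apple means of gene1179 and gene1174 peak at 5 months, and those of gene292 and gene10040 are lowest at 5 months.

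At the other months the features called at 5 months showed small differences whose direction changed with the month. Of the 402 features higher in apple at 5 months, 52.7% were higher in apple by their fold change at 2 months, 74.6% at 3 months, 33.6% at 4 months and 74.9% at 6 months. Of the 492 lower in apple, the shares higher in apple at those months were 40.9%, 27.8%, 63.6% and 30.1%. Over all features tested the shares were 51.0%, 50.1%, 52.2% and 48.6%. Median log2 fold changes of the 402 features were 0.02, 0.11, -0.18 and 0.15 at 2, 3, 4 and 6 months, and those of the 492 features -0.08, -0.14, 0.10 and -0.15. At 4 months, the group with the hawthorn libraries that stand apart, both sets lay on the side opposite to that of 5 months. None of these libraries enters the host difference at 5 months.

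Calls of the 894 features at another month are given beside those over all 13862 features. At 6 months 75 of all features were called (0.541%), 55 higher and 20 lower in apple. Of the 402, 3 were higher and 0 lower, and of the 492, 4 were higher and 3 lower. At 2 months 436 of all features were called (3.15%), 233 higher and 203 lower. Of the 402, 7 were higher and 5 lower in apple, and of the 492, 12 were higher and 25 lower. At 4 months 1310 of all features were called (9.45%), 467 higher and 843 lower. Of the 402, 14 were higher and 44 lower in apple, and of the 492, 9 were higher and 12 lower. At 3 months 0 of the 13862 features were called by edgeR's test, and 1274 had an unadjusted p under 0.05. These counts at the other months come from the fit of all 50 libraries, which holds the hawthorn libraries that stand apart. They were not refitted without those libraries.

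**Figure D4:**
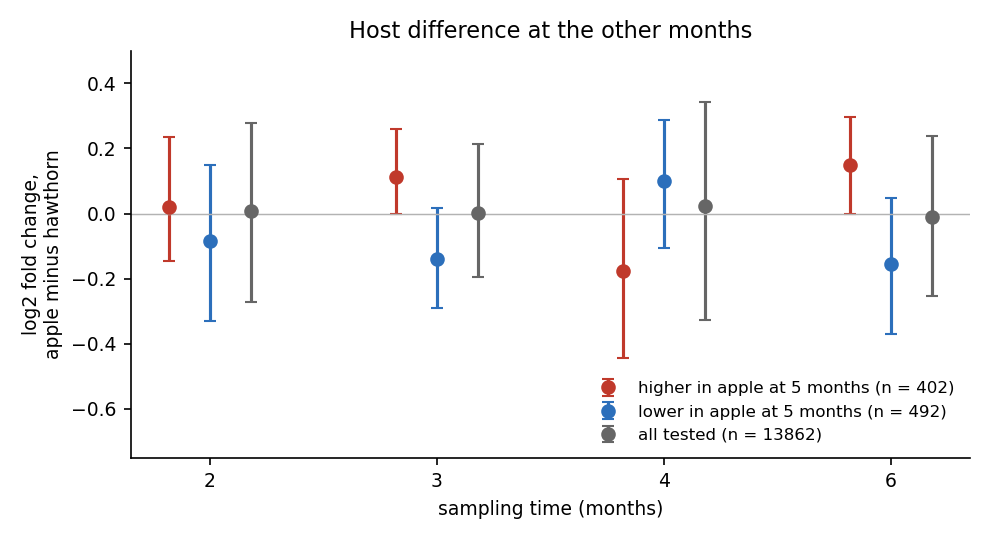
Median log2 fold change, apple minus hawthorn (points), with the quartiles (bars), at 2, 3, 4 and 6 months, for the 402 features higher and the 492 lower in apple at 5 months and for all 13862 features tested. The medians of the 2 called sets lie within 0.18 of 0 on the log2 scale and swap sides at 4 months.

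Called features differed in transcript length by direction. The median length was 1167 bp among features higher in apple, 2755 bp among those lower in apple and 1649 bp over all features tested. From the shortest to the longest quintile of the features, 139, 114, 84, 50 and 15 were higher in apple, and 24, 40, 76, 131 and 221 were lower. In the shortest quintile 5.01% were called higher and 0.864% lower, and in the longest quintile 0.541% were called higher and 7.97% lower. Thus short transcripts that differed were mostly higher and long ones mostly lower in apple.

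Library measures were set beside this. The length slope of a library (the slope over features of the log2 CPM, less its mean over all libraries, on log2 transcript length) was -0.0396, 0.0444, -0.0413, -0.120 and 0.0665 in apple replicates 1 to 5, against 0.0654, 0.0577, 0.157, 0.128 and 0.0523 in hawthorn replicates 1 to 5. A higher slope means relatively more counts on long transcripts. The groups overlapped at apple replicate 5, and the means were -0.0179 ± 0.0748 in apple and 0.0921 ± 0.0473 in hawthorn (SD, n = 5 each). The difference of -0.110 had a 2-sided exact permutation p of 0.0397, and 0.198 after Benjamini-Hochberg adjustment over the 5 library measures compared. The other 4 (total count, features detected, share of the 10 most abundant features and TMM factor) had exact p between 0.198 and 0.952. The smallest p this design allows is 0.00794.

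With the length slope of each library as a covariate, 362 features were called, 137 higher and 225 lower in apple, of which 251 were among the 894. All 894 kept their direction, with a median log2 difference of 0.50 in place of 0.72. As with the lane term, they had been chosen in the same libraries, so this is no test of the length slope. From the shortest to the longest quintile, 14, 21, 23, 43 and 36 features were then higher in apple and 34, 44, 45, 44 and 58 lower. The part of the length slope in the host difference was not tested beyond this fit.

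The relation to the later cold period was also examined in that fit and among transcripts of like length. With the covariate, 86.7% of the 225 features lower in apple rose from 3 to 6 months in apple and 83.6% in hawthorn, against 28.5% and 20.4% of the 137 higher in apple and 49.9% of all features in each host. In the fit without it, each quintile by length held between 58.3% and 87.0% of rising features in apple and between 66.7% and 89.3% in hawthorn among those lower in apple at 5 months, the lowest in the shortest quintile with 24 features. Over all tested features of a quintile the share ran from 44.3% to 55.2%. Among the features that rose from 3 to 6 months in both hosts, the longer ones stood at 0.364 ± 0.180 in apple and 0.872 ± 0.0984 in hawthorn at 5 months on the scale given above. The shorter ones stood at 0.379 ± 0.168 in apple and 0.777 ± 0.0407 in hawthorn (SD, n = 5 each). Among the features that fell in both hosts, the longer ones stood at 0.623 ± 0.138 in apple and 0.809 ± 0.116 in hawthorn, and here the hosts overlapped (0.427 to 0.748 in apple, 0.709 to 0.988 in hawthorn). The shorter ones that fell stood at 0.544 ± 0.0978 in apple and 0.849 ± 0.0910 in hawthorn, with no overlap.

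**Figure D5:**
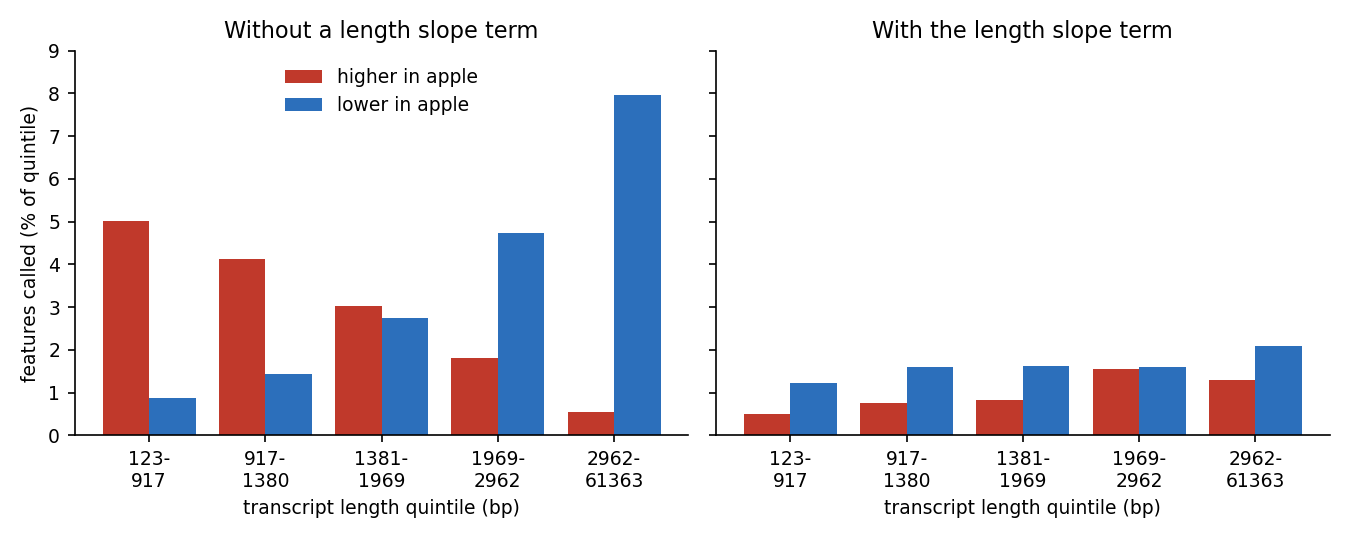
Share of the features of each transcript length quintile (percent, vertical axis, from 0) called higher in apple (red) or lower in apple (blue) at 5 months, without (left panel) and with (right panel) the length slope of each library as a covariate. Without it, 5.01% of the shortest quintile were higher and 7.97% of the longest quintile lower in apple, and with it between 14 and 58 features of each quintile were called in each direction.

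By abundance, the share of features called was lowest among the scarcest features and highest at a mean log2 CPM of 5 to 7, in each direction. From a mean log2 CPM under 1 through classes of 1 to 3, 3 to 5, 5 to 7 and at least 7, 36, 49, 135, 137 and 45 features were higher in apple, and 41, 121, 182, 108 and 40 were lower. As shares of the classes in that order, 0.812%, 1.43%, 4.16%, 7.15% and 5.34% were higher in apple. The shares lower in apple were 0.925%, 3.53%, 5.61%, 5.63% and 4.75%. Among features with 1 listed transcript 2.95% were higher and 3.07% lower in apple, and among those with several 2.77% were higher and 4.81% lower.

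The abundance-weighted transcript length of a feature showed no called difference between hosts. Shifts between transcripts of like length leave this measure unchanged and were not tested. It was compared in limma for 3417 features. These had several transcripts, a TPM above 0 in all 10 libraries and a length that varied among them, and 263 more of constant length were left out. Of the 3417, 0 passed an adjusted p of 0.05 in limma, while 235 had an unadjusted p under 0.05. Without hawthorn replicate 1, 4 or 5, in turn, 1 feature passed.

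Distances between apple pools were larger in the median than those between hawthorn pools. The root mean square difference in log2 CPM over 9429 features was 0.420 to 0.711 between apple pools (median 0.638), 0.404 to 0.684 between hawthorn pools (median 0.442), and 0.510 to 0.820 between an apple and a hawthorn pool (median 0.642). The median distance between hosts was thus about that between apple pools. Apple pools were not alike. Replicates 2 and 5 were 0.420 apart and replicates 1, 3 and 4 were 0.545 to 0.567 apart, against 0.634 to 0.711 between these sets. Apple replicates 2 and 5 were nearer to hawthorn replicate 2 (0.510 and 0.517) than to apple replicate 1, 3 or 4. Their length slopes were positive and those of apple replicates 1, 3 and 4 negative. The grouping was seen in the values and was not tested. Among hawthorn pools replicate 5 was farthest from the others, at 0.580 to 0.684. The median SD of log2 CPM over the same features was 0.31 in apple and 0.25 in hawthorn.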

How the data were processed

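The authors sequenced stranded mRNA libraries as 100 bp single-end reads, mapped cleaned reads to the R. zephyria genome with STAR and counted them with RSEM, per the series' design text. Tool versions, the genome build, its annotation and the cleaning steps were not given in the sources used here. The deposited unit used for tests was the expected count per feature, estimated by the authors with RSEM, which splits reads that match several features, so near-identical copies are uncertain. The deposited TPM values, also from RSEM, were used for shares and isoform weights. Transcript lengths in bp were read from the same deposited files and credited to RSEM per the file headers.

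Expected counts were rounded (library totals moved by at most 0.000438%) and filtered with filterByExpr (minimum count 10, minimum total 15), which left 13862 of 29399 features. After TMM scaling, edgeR's quasi-likelihood model (robust, in the form used before edgeR 4) with a mean for each host and month was fitted to all 50 libraries, and p-values were adjusted by Benjamini-Hochberg over all features tested. An adjusted p under 0.05 is a call, and every adjusted p of a feature is from this test unless limma is named. Fold changes are apple over hawthorn on the log2 scale, and the SE is the fold change divided by the root of its F value. Library measures were compared by exact permutation tests. The tests were checked on simulated counts. Software was R 4.3.3, edgeR 4.0.16, limma 3.58.1, DESeq2 1.42.0, Python 3.11.15 and matplotlib 3.10.9.

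Members, lists and rules were chosen with earlier results of these data known. Named features are the pair with the largest log2 fold change each way that met the criteria given with them, and the gene lists and cell type markers planned had 0 members that could be matched. Replicates are separate pools per the labels, and no pair of libraries agreed within sampling noise (chi-square per degree of freedom at least 12.5). Lanes and index types come from the run information left in the deposited data. A hawthorn library of 6 months whose title has the letter B was taken as replicate 3. Alternatives tried were scaling, low-count filter, groups in the fit, replicate block, lane, length slope, libraries that stand apart or have a single index, effective length offsets, the quasi-likelihood form, DESeq2 and leaving out each library.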

Additional observations from a re-analysis of the deposited data

Results flagged for a closer look

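Values that lay far from the other 4 libraries of their group, by Dixon's criterion for 5 samples (a ratio above 0.71), were found in 17 of the 104 groups checked. Chance marks about 1 in 20 groups if values are normally distributed. The distribution of the values checked was not tested, so an excess over that share cannot be read from these counts. At 5 months there were 2 of them. Hawthorn replicate 5 had 15917 features with a count of at least 1, fewer than the other hawthorn libraries, and the lowest gene19551 value of hawthorn was 0.152 CPM.

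The other 15 were at other months. In apple pupae the values were 43.0 CPM of gene6794 at 2 months and 33.9 CPM at 4 months, 0.152 CPM of gene16789 at 2 months and 3.11 CPM at 3 months, and 13.6 CPM of gene15646 at 2 months. They were also 346 CPM of gene25032 at 3 months and 215 CPM at 6 months, 29.6 CPM of gene292 at 3 months, and 5.23 CPM of gene10040 at 4 months. In hawthorn pupae they were 2.98 CPM of gene19551 at 3 months, 27.8 CPM of gene6794 at 6 months, 21.4 CPM of gene15646 at 3 months and 3.95 CPM at 4 months, 14.8 CPM of gene292 at 6 months, and 771 CPM of gene1174 at 2 months. The value of gene16789 in apple at 2 months and that of gene15646 in hawthorn at 4 months were the lowest of their groups, and the others the highest.

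The host difference at 5 months differed from the mean of the other months by an interaction test (edgeR, log2 scale) for 7 of the 9 features named by rule. The interactions were 1.31 for gene6794 (SE 0.37, adjusted p = 0.0235), -1.17 for gene15646 (SE 0.33, adjusted p = 0.0229), 2.58 for gene1179, 2.24 for gene25032, -2.44 for gene292, -1.97 for gene10040 and 2.22 for gene1174 (SE 0.42, adjusted p = 0.00195). Against 6 months alone they were 2.67 for gene1179, -3.17 for gene292, -2.20 for gene10040 and 2.57 for gene1174. All but gene6794 and gene15646 had been named for the size of these interactions.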

How the results depend on the processing

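In place of 894 calls at 5 months there were 544 with no count filter (533 of them among the 894), 1 with a lane term, 362 with a length slope term (251 shared), 1855 without hawthorn replicates 2 and 4 of 4 months (894 shared), and 1384 by DESeq2 (862 shared). In place of 1233 interactions with the mean of the other months there were 1 with the lane term, 301 with the length slope (44 positive, 257 negative), 628 with the length slope and without those hawthorn libraries, and 682 without the single-index libraries. In place of 97 interactions with 6 months there were 0 with the lane term, 230 with the length slope, 383 without the hawthorn libraries, 507 with both of these changes, 0 without the single-index libraries and 256 by DESeq2. For apple of 5 months against hawthorn of 6 months, in place of 498, there were 312 with no count filter, 214 with only those groups in the fit, 1 with the lane term (gene13443, adjusted p = 0.0377, edgeR), 1238 without the hawthorn libraries, 43 without the single-index libraries and 898 by DESeq2. For apple of 6 months against hawthorn of 5 months, in place of 141, there were 73 with no count filter, 0 with the lane term (1012 at an unadjusted p under 0.05 in edgeR), 280 with the length slope (156 higher, 124 lower), 644 without the hawthorn libraries, 479 with both of these changes (221 higher and 258 lower in apple, in place of 101 and 40), 2 without the single-index libraries and 434 by DESeq2. The causes were not tested. Leaving out 1 library at a time gave 279 to 1022 calls at 5 months, 345 to 1462 and 50 to 205 interactions, 186 to 789 and 9 to 540 calls for the comparisons 1 month apart, and 0 to 1 isoform calls. Among the library measures, none of which passed the threshold, leaving out 1 library turned the sign of the host difference in features detected (-364 to 100.4) and in the percentage of counts in the 10 most abundant features (-0.703 to 0.441). Of the features called at 5 months, 864 of 865 testable ones kept their sign with only the groups of the contrast in the fit, and of those called for apple of 6 against hawthorn of 5 months 138 of 140 did without the single-index libraries. No named feature changed sign.

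The replicate numbers did not pair the libraries: the correlation of deviations at the same number ran from -0.105 to 0.0630 over the 5 pairs. With the replicate block the counts were 845 at 5 months, 1232 and 90 interactions, 486 and 110 for the comparisons 1 month apart, and 0 for isoform length. The fits without 6 single-index libraries, and with the length slope and without the 2 hawthorn libraries together, were added after seeing the data. A fit of only the groups of the contrast was not run for the interaction with the mean of all months, which uses every group. With 5 pools a host, small differences and low features may go undetected, and lane and host cannot be told apart at 5 months.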
